A study of Mus musculus with 2 samples.

Results

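The enzymes that remove reactive oxygen species in red cells were followed in a map of open chromatin from mouse erythroblasts, which are precursors of red cells that still hold a nucleus. The 9 genes were Prdx2, Prdx1, Cat, Sod1, Gpx1, Gpx4, Txn1, Gclm and G6pdx. They were set against 21938 protein-coding genes on chromosomes 1 to 19, X and Y. The 9 were taken from a list of names with no threshold on a measured value, but with earlier results of these data known. Open chromatin was measured by ATAC-seq, in which a transposase cuts and tags accessible DNA so that sequenced fragments pile up where the DNA is exposed. Both libraries were made from 50000 primary erythroblasts of male adult C57BL/6J mice, 5 to 6 weeks old, with no treatment or genetic change named. They formed 1 group of 2 replicates, so there was no contrast between conditions and no test of one. The replicates had separate biosample identifiers and 1 shared donor identifier, so their spread may be partly technical, and only the second named its sequencing instruments.

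Hemoglobin that carries oxygen slowly releases superoxide, and developing red cells build a store of protective enzymes that must last after the nucleus is gone. Superoxide dismutase turns superoxide into hydrogen peroxide, and peroxiredoxins, catalase and glutathione peroxidases remove the peroxide. Thioredoxin, glutathione and NADPH supply the reducing power. Many such genes carry antioxidant response elements, where the factor NRF2 binds DNA with a small MAF protein. The erythroid factor NF-E2 uses the same MAF partners and a closely related DNA core.

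The values are peak intervals, that is stretches that the authors' peak caller marked as open, each with the enrichment of its summit over background (a fold). The main lists were thresholded on the irreproducible discovery rate, a measure of how repeatable a peak's rank is. They held 17777 intervals in replicate 1 and 18837 in replicate 2, with a median enrichment of 7.83 and 7.74. Read counts were not used here and depth is unknown, so enrichment was read within a list, as a value and as a percentile of that list. In a bulk library, fewer cells with an open site and weaker opening in each cell cannot be told apart. As a check of the cell type, 10 of 10 erythroid marker genes had an open promoter, beside 41.4% of all coding genes. Of 15 markers of other blood cells 3 did: Gp1ba and Itga2b of megakaryocytes and Cd163 of macrophages. Their part in the values below was not tested.

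All 9 antioxidant genes were open at the promoter in both replicates, meaning that each thresholded list had an interval reaching to 1 kb or less from a GENCODE start site of the gene. By the same rule 9083 of 21938 protein-coding genes, or 41.4%, were open. Since the 9 were chosen with earlier results of these data known, their count is a description and not a test. Next to those of all open genes, the promoter intervals of the 9 were mostly of modest enrichment. In replicate 1 the strongest promoter interval of 8 of the 9 genes lay below the median of all open genes, and in replicate 2 that of 9 of 9. The median over the 9 genes was 7.21 in replicate 1 and 7.45 in replicate 2, against 9.73 and 9.86 over all 9083 open genes. When the lists were cut to their stricter 50% by enrichment, Prdx1, Sod1 and Gpx4 had a promoter interval in both, 3 of 9, beside 30.0% of coding genes.

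**Figure D1:**
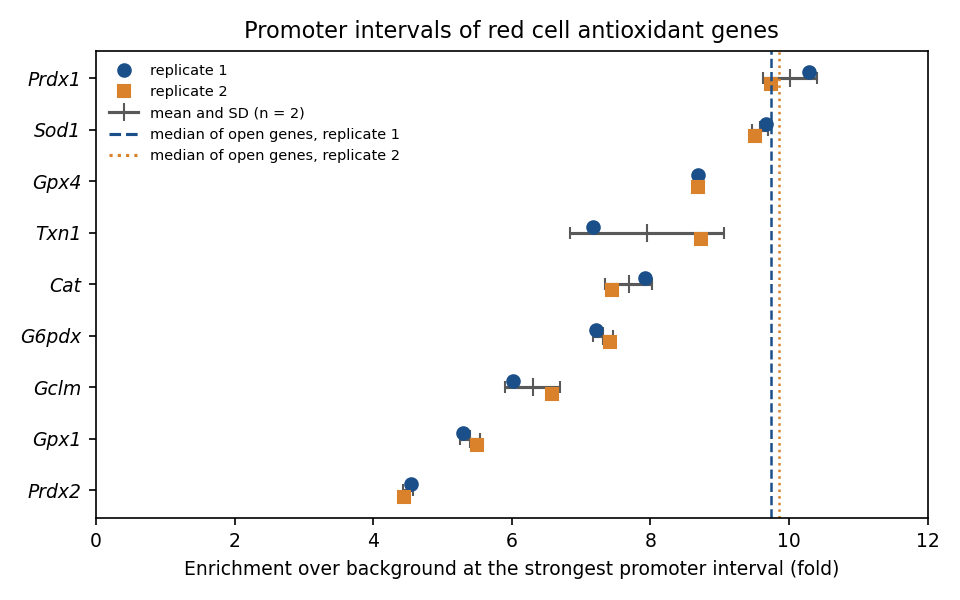
Enrichment (fold over background, linear axis from 0) of the strongest promoter interval of each gene. Circles are replicate 1, squares replicate 2, the grey tick and bar the mean and SD of both, and the vertical lines the medians of all 9083 open genes, 9.73 and 9.86. Prdx1 stands highest and Prdx2 lowest in both replicates, and Txn1 has the widest spread.

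The order of the genes was the same in both replicates at its ends. Prdx1 and Sod1 were highest, and Gclm, Gpx1 and Prdx2 were the lowest, in that order. Txn1 lay between, and its values of 7.16 and 8.73 spanned those of Gpx4, Cat and G6pdx, so it could not be placed among them. The values of Cat and G6pdx nearly met, at 7.45 and 7.42 in replicate 2. Ranked instead by significance, given as -log10 of p by the authors' peak caller, Gpx4 led with 111 and 113, ahead of Cat with 83.5 and 79.2, while Prdx1 had 63.3 and 61.1. Prdx2 was lowest on both scales, with a -log10 p of 48.6 and 48.1.

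Prdx2 encodes the main cytosolic peroxiredoxin of red cells, and mice without it develop hemolytic anemia. The gene (ENSMUSG00000005161.15) lies on chromosome 8 from 84969587 to 84974834, plus strand, in mm10. Its 5' start had a weak interval with an enrichment of 3.83 in each replicate, at percentile 3.97 and 4.24 of the lists. That interval also lay by start sites of Rnaseh2a and Gm49661. The stronger of its promoter intervals had its summit in an intron, 1.58 kb inside the gene and close to an internal annotated start, with 4.55 in replicate 1 and 4.45 in replicate 2 (4.50 ± 0.0736, SD, n = 2). It was short, 365 and 344 bp, against a median width of 897 and 887 bp for the strongest promoter interval of open genes. Among the strongest promoter intervals of all open genes it stood at percentile 1.57 and 1.28. So the gene for a hallmark red cell peroxidase was open in both replicates, with promoter intervals near the bottom of both lists.

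The intronic site of Prdx2 held 2 copies of the GATA core AGATAA within 75 bp of the summit, the most at any of the 58 sites described here. GATA factors such as GATA1 bind this core in erythroid genes. The stretch of the window that overlaps no annotated exon is printed because it carries 1 of these copies, in capitals (TTATCT on this strand). It is chr8:84971126-84971238 of GRCm38.p6 (mm10), plus strand.
Prdx2 intron: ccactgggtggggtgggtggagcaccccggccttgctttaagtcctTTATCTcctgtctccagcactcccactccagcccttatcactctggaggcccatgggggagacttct

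Around Prdx2, open sites were many. The gene body with 50 kb either side held 12 intervals in replicate 1 and 13 in replicate 2, a mean at percentile 98.7 of coding genes. The window also held 7 starts of other coding genes. Of its 14 sites, counted once over both replicates, 9 lay outside the gene at starts of neighbors, among them Junb (4.34 and 4.43 at 7.08 kb), Hook2 (8.89 and 9.03 at 28.5 kb) and Rnaseh2a (6.13 and 6.09 at -3.41 kb). Away from any start lay 3 sites, each in both replicates: intergenic at -24.9 kb (5.89 and 7.34), in an exon of Rtbdn at -16.6 kb (7.64 and 7.43) and in an exon of Best2 at 38.3 kb (5.55 and 6.15). Each of these 3 exceeded the promoter intervals of Prdx2 itself in both lists.

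Prdx1, a second cytosolic peroxiredoxin and a known NRF2 target, had the highest promoter enrichment of the 9, though not the highest significance. The gene (ENSMUSG00000028691.12) lies on chromosome 4 from 116685544 to 116700822, plus strand. Its promoter interval reached 10.3 in replicate 1 and 9.74 in replicate 2 (10.01 ± 0.388), at percentile 75.6 and 71.0 of the lists. Replicate 1 lay above the median of open genes and replicate 2 just below it. The summit lay in an exon, 415 and 416 bp after the outermost start.

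Upstream of the Prdx1 start, inside the interval of both replicates, the letters of an antioxidant response element (TGACNNNGC) and of an NF-E2 or AP-1 core (TGANTCA) overlapped. The exon-free bases before the RefSeq start are printed for this overlap, written GCTGAGTCA on the gene's strand. The other capitals mark CCNCNCCC, a pattern of KLF and SP factors, on either strand. The stretch is chr4:116685449-116685543 of GRCm38.p6, plus strand.
Prdx1 upstream: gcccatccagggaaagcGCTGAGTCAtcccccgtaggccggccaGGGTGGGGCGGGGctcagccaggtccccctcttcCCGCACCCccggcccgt

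Of the 9 RefSeq promoter windows of 300 bases, all 9 of which matched the genome, Prdx1, Sod1, Gclm and G6pdx held the response element pattern. Gpx4 had 4 RefSeq windows, and only the 1 with its start at 80053565, at the open internal part of the gene, was used. The response element pattern was present in 13.1% of 20150 such windows of coding genes. Prdx1 alone of the 9 held TGANTCA, with 2 copies, where 7.0% of all windows had it. A match of letters is a description and not evidence of binding.

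Away from its promoter, Prdx1 had few weak sites and several strong ones at neighbors' starts. The interval by the starts of Mmachc and Ccdc163 at 22.9 kb had 12.3 and 11.7, above Prdx1's own promoter in both lists. At the start of Tesk2, 35.3 kb downstream, the values were 11.99 and 10.7. A small site in an intron of Ccdc163 at 34.0 kb had 4.85 and 4.74, and another in an intron of Mmachc at 18.5 kb was thresholded in replicate 2 only, with 4.29.

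Sod1 encodes the cytosolic copper and zinc superoxide dismutase. The gene (ENSMUSG00000022982.10) lies on chromosome 16 from 90220754 to 90226329, plus strand, with a single annotated start. Its promoter interval had 9.66 and 9.50 (9.58 ± 0.113), the second highest of the 9 in each replicate. The summits lay at -90 and -101 bp. The interval measured 1674 bp in replicate 1, at percentile 98.4 of the widths of open genes, but 809 bp in replicate 2, so its width differed between the replicates more than its height did.

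A site at -7.13 kb, in intergenic sequence, had 7.65 and 7.50 and held 1 AGATAA. Another in an intron of Scaf4 at 43.4 kb had 7.29 and 6.56. Both were in each replicate and away from all annotated starts. The strongest interval of the window, with 12.8 in each replicate, lay at -22.9 kb by a start of Gm49704. Both sequences below are from the plus strand of GRCm38.p6. The upstream stretch, chr16:90220612-90220753, is shown for its response element letters, GCGTGGTCA on this strand, which here overlap a KLF and SP match, and for ATTGG, the reverse complement of the NF-Y core CCAAT. The distal stretch, chr16:90213549-90213699, is shown for its GATA core in capitals.
Sod1 upstream: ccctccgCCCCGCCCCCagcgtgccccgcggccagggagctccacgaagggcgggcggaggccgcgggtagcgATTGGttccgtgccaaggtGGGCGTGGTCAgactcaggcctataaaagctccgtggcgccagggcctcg
Sod1 distal: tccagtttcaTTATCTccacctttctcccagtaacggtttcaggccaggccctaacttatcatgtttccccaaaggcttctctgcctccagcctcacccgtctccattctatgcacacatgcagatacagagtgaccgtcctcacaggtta

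Cat encodes catalase, the heme enzyme that splits hydrogen peroxide into water and oxygen. The gene (ENSMUSG00000027187.10) lies on chromosome 2 from 103453849 to 103485160, minus strand. Its promoter interval had 7.92 and 7.45 (7.68 ± 0.333), with the summit 13 and 16 bp from the start. That was the closest among the strongest promoter intervals of the 9 genes. A second, weaker interval followed at 0.83 kb, with 3.94 and 3.83, and held 1 AGATAA. Further into the gene lay an intronic site at 1.36 kb, with 3.80 and 3.39, that held TGAGTCA. A site at 4.71 kb, with 4.80, was thresholded in replicate 2 only and held the letters of a response element. So the intervals inside Cat clustered in its first 5 kb, and all but the one at the start stood at percentile 12.3 or lower of their lists.

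The Cat promoter window had the most copies of the NF-Y core CCAAT of the 9, with 4, while 37.8% of all RefSeq windows had at least 1. Gpx4 had 3 copies and Sod1 and Gclm 1 each. The exon-free bases upstream of Cat, chr2:103485161-103485303 on the minus strand, are printed for 3 of these copies (CCAAT or ATTGG in capitals), beside KLF and SP matches. The intronic site, chr2:103483724-103483874 on the plus strand, is printed for its NF-E2 or AP-1 core. Both are from GRCm38.p6.
Cat upstream: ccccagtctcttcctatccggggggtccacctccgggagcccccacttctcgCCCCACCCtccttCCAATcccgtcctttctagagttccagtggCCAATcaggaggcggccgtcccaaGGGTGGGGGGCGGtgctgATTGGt
Cat intron: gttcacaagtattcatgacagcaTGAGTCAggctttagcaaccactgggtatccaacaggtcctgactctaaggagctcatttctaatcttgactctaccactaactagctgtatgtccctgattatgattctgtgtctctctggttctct

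Gpx1 encodes the selenium enzyme that reduces hydrogen peroxide with glutathione. The gene (ENSMUSG00000063856.7) is short, on chromosome 9 from 108338903 to 108340343, plus strand. Its promoter interval had 5.29 and 5.49 (5.39 ± 0.143), at percentile 16.8 and 19.9 of the lists, second lowest of the 9. Just behind the gene lay a wide site of 1203 and 1153 bp, with its summit at 2.11 kb in both replicates and an enrichment of 4.56 and 4.65. It touched the end of the gene in replicate 1 only, so it counted as intragenic there and as outside in replicate 2. It held none of AGATAA, TGACNNNGC and TGANTCA near the summit. Much stronger was the interval by the start of Nicn1 at -48.5 kb, with 15.8 and 14.1, at percentile 98.7 and 95.9 of the lists.

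Gpx4 encodes the glutathione peroxidase that reduces lipid peroxides in membranes, and its transcripts give cytosolic, mitochondrial and nuclear forms. The gene (ENSMUSG00000075706.10) lies on chromosome 10 from 80047166 to 80056439, plus strand, with 7 annotated start sites. No interval lay at its outermost start in any list examined, the thresholded, pseudoreplicated and replicated ones. The open promoter was 6.37 kb further in, 44 and 41 bp past an internal start, with 8.68 and 8.69 (8.68 ± 0.00293). These values differed the least between replicates of all 9 genes. A second interval followed at 7.06 kb with 3.36 and 3.22, at percentile 1.67 and 1.29 of the lists. So Gpx4 was open at its internal starts and not called at the outermost one.

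At 24.2 and 34.1 kb from the outermost Gpx4 start, inside exons of Sbno2, lay sites with 5.23 and 5.26 and with 7.83 and 7.68. The first held the response element and NF-E2 or AP-1 letters and the second 1 AGATAA. The stretch upstream of the RefSeq start of Gpx4, chr10:80053415-80053487 on the plus strand of GRCm38.p6, lies inside the open interval and is shown for its KLF and SP match and its ATTGG.
Gpx4 upstream of the internal start: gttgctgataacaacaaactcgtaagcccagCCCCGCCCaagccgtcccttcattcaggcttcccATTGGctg

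Txn1 encodes thioredoxin, which returns oxidized peroxiredoxins to their active form. The gene (ENSMUSG00000028367.5) lies on chromosome 4 from 57943373 to 57956411, minus strand. Its window held 1 thresholded interval in each replicate, over the promoter, and no other. The interval was broad, 2046 bp with 7 summits in replicate 1 and 1703 bp with 6 in replicate 2, at percentile 99.9 and 99.0 of the widths of open genes. Its enrichment was 7.16 and 8.73 (7.95 ± 1.11), the largest spread of the 9, and its strongest summit lay at -463 and -459 bp. Txn1 was thus the one of the 9 with the widest promoter interval and the fewest sites. Its 151 bp summit window held none of the 7 patterns sought. The RefSeq promoter window of Txn1, inside the interval in both replicates, held 3 CCNCNCCC matches and none of the other patterns. In the less strict pseudoreplicated lists 2 intervals outside the gene appeared in its window in each replicate.

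Gclm encodes the modifier subunit of glutamate-cysteine ligase, the first step of glutathione synthesis, and is a known NRF2 target. The gene (ENSMUSG00000028124.15) lies on chromosome 3 from 122245557 to 122270732, plus strand. Its promoter interval had 6.02 and 6.58 (6.30 ± 0.396), with summits at -188 and -194 bp. An intronic site at 1.90 kb had 5.49 and 5.35 and held 1 AGATAA. It was 1 interval of 924 bp in replicate 2 and was split into 2 in replicate 1. At 50.1 kb, in an intron of Bcar3, a site of 5.19 and 4.97 held TGACTCAGC, in which the response element and NF-E2 or AP-1 patterns overlap as they do upstream of Prdx1. The sites at 28.8 kb (7.82 and 8.74) and 47.5 kb (7.39 and 7.17) lay at starts of Dnttip2 and of Bcar3 with 3 other annotated genes. Both exceeded the Gclm promoter in each list.

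The Gclm stretches, all on the plus strand of GRCm38.p6, show these letters. The upstream one is chr3:122245407-122245556, with the response element as GCACCGTCA and KLF and SP matches in capitals. The intronic one is chr3:122247378-122247528, with the GATA core. The one in Bcar3 is chr3:122295613-122295763, with the overlapping core.
Gclm upstream: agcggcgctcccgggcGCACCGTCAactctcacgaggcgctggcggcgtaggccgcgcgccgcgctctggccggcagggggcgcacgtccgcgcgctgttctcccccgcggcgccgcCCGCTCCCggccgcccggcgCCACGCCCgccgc
Gclm intron: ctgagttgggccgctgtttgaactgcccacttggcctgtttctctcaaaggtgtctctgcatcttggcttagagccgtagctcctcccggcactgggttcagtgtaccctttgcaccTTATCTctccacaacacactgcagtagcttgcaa
Gclm distal: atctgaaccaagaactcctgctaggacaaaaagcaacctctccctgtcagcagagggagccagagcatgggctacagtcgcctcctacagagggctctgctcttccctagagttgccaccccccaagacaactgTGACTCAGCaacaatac

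G6pdx encodes glucose-6-phosphate dehydrogenase, which makes NADPH, and a lack of this enzyme causes hemolysis in people. The gene (ENSMUSG00000031400.10) lies on chromosome X from 74409483 to 74429194, minus strand. Its promoter interval had 7.21 and 7.42 (7.32 ± 0.145) and also lay by a start of Ikbkg, whose transcripts overlap G6pdx. A second promoter interval at -0.485 kb was thresholded in replicate 2 only, with 4.64. An intronic site at 15.6 kb, away from all starts, had 8.90 and 7.92 and so exceeded the promoter in both lists. Of the 8 genes with such a site in both replicates, Prdx2 and G6pdx were those where one outranked the promoter in each list.

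At 3.80 kb, in an intron of G6pdx and by another Ikbkg start, an interval of 4.68 and 4.25 held 2 response element matches and 1 TGAGTCA, the most of these 2 patterns together at any of the 58 sites. It is printed from the plus strand of GRCm38.p6 at chrX:74425322-74425472, with the matches in capitals. The strongest interval of the window, 15.4 and 15.7, lay at 35.9 kb by starts of Fam3a and Ikbkg.
G6pdx intron: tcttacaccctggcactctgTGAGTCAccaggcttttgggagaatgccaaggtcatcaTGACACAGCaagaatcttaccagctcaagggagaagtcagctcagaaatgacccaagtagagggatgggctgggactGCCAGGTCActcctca

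Over the 9 windows, replicate 1 had 53 intervals and replicate 2 had 55. By class, 12 and 13 were promoter intervals, 6 and 5 intragenic, and 35 and 37 outside the gene. Of those outside, 26 in each replicate lay by a start of another gene. The pseudoreplicated lists held 82 and 77 intervals in these windows, and the replicated list of both libraries 98.

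**Figure D2:**
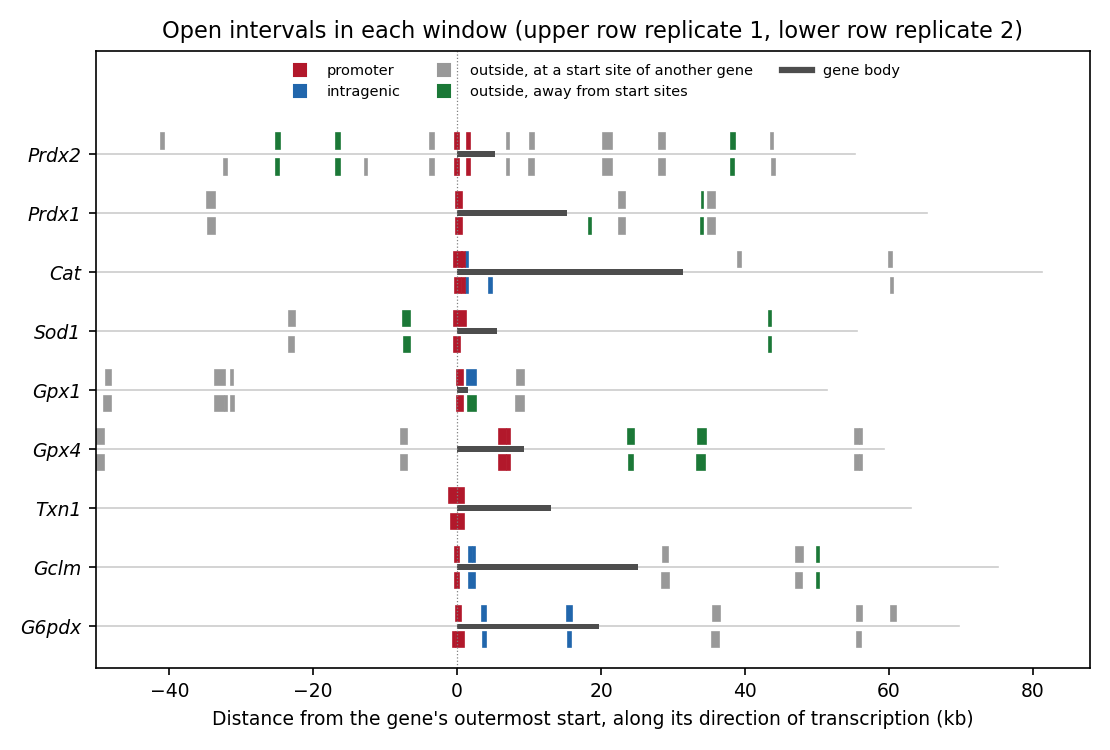
Thresholded intervals around each gene, by distance (kb) from the gene's outermost start along its direction of transcription. The upper marks are replicate 1 and the lower ones replicate 2, the dark bar is the gene body, and colors give the class. Prdx2 has the most marks, Txn1 a single one per replicate, and the promoter marks of Gpx4 stand 6.37 kb inside the gene.

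Joined over the replicates, these intervals made 58 sites, of which 49 (84.5%) were in both. The other 9 were weak to middling, from 3.68 to 6.76, and all 9 were found in both pseudoreplicated lists. Where both replicates had a site, the summits lay a median of 6 bp apart and at most 284 bp. At the 1 bp level, 50 of 53 intervals of replicate 1 (94.3%, 95% Wilson interval 84.6 to 98.1%, counting error only) overlapped one of replicate 2. In the other direction it was 49 of 55 (89.1%, 78.2 to 94.9%). Over all intervals of the lists the shares were 91.1% and 86.3%, so the sites near these genes repeated about as often as the rest.

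Per window, the mean number of intervals ran from 1 at Txn1 to 12.5 at Prdx2, with 4 at Sod1, 5 at Cat, 5.5 at Prdx1 and Gclm, 6 at G6pdx, 6.5 at Gpx1 and 8 at Gpx4. The median over the 9 genes was 5.5, against 2 over all coding genes and 4 over the open ones. Replicates differed by at most 1 interval in any window. Prdx2, Gpx4, Gpx1 and G6pdx stood at percentile 84.9 or higher of coding genes, and each of these windows held between 3 and 7 starts of other coding genes. Prdx1, with 4 such starts, and Gclm, with 2, both stood at percentile 82.4. Cat (1 start) stood at 79.4, Sod1 (0) at 72.1 and Txn1 (1) at 39.2. No fit for the number of neighboring starts was made.

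**Figure D3:**
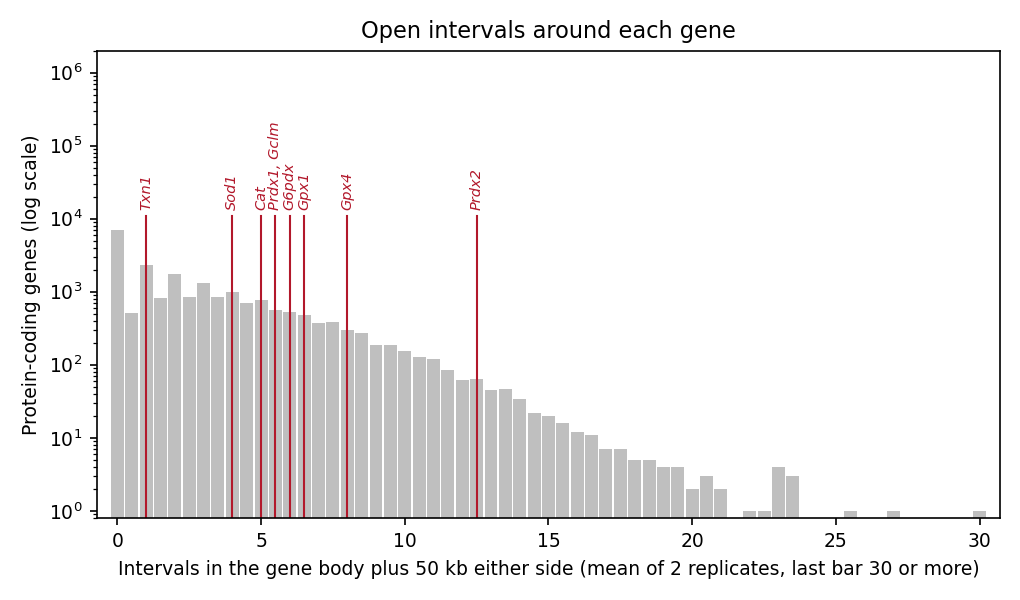
Number of protein-coding genes (log scale) by the mean number of thresholded intervals in the gene body plus 50 kb either side. Red lines mark the 9 antioxidant genes, from Txn1 at 1 to Prdx2 at 12.5, and the median of all coding genes is 2.

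A site away from every annotated start, found in both replicates, was present for 8 of the 9 genes, all but Txn1. By the same rule 35.3% of coding genes had one. The median number of such intervals per window was 1 over the 9 genes and 1 over the 9083 open coding genes, against 0 over all coding genes. So having such a site was common among open genes in general. Sites away from every start numbered 15, of which 13 were in both replicates. Their median enrichment was 5.55 in replicate 1 and 6.15 in replicate 2, lower than the medians of the lists. Those lists also hold promoter intervals, and no median over all their intervals away from starts is given here. Near their summits, within 75 bp, 3 of the 15 held AGATAA, 3 the response element and 3 TGANTCA. Over all intervals of replicate 1 with a summit away from start sites, 23.7%, 13.0% and 9.23% held these patterns. With 15 sites, counts this small cannot separate the sites from that background.

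Over all 58 sites, 6 held AGATAA (13.0% of all intervals of replicate 1), 11 the response element (11.4%), 6 TGANTCA (5.71%), 27 CCNCNCCC (41.5%), 13 CCAAT (25.2%) and 3 the ETS pattern CCGGAAG (9.11%). The NRF1 pattern GCGCATGCG was in none, where 1.78% of all intervals had it. None of these counts was tested, since sites share windows and neighbors. In the RefSeq promoter windows, AGATAA was in 0 of the 9, where 9.45% of all windows had it. Only AGATAA was sought for GATA factors. The related letters TGATAA were not counted, and they occur on 1 strand or the other in the printed Gpx4 upstream, Sod1 distal and Prdx2 intron stretches. So the count of 0 does not show that these promoters lack GATA sites.

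Beyond the 9 genes, 31 of 40 other antioxidant genes (77.5%) were open at the promoter in both replicates, beside the 41.4% of all coding genes. This wider list was also chosen with earlier results of these data known. Of the 40, 23 (57.5%) had a site away from all starts in both replicates, beside 35.3% of coding genes. Most of the 40 were open, and over open coding genes the median window held 1 such interval, so the 2 shares are not matched for open promoters. The strongest promoter intervals were those of Blvra, which makes bilirubin from biliverdin (16.1 and 17.0), and Glrx3, a glutaredoxin that handles iron-sulfur clusters (16.0 and 16.2). Next came Idh1, a cytosolic source of NADPH (14.6 and 15.4, by a start of Pikfyve too), and Prdx4, the peroxiredoxin of the endoplasmic reticulum (14.0 and 14.5, at an internal start). All 4 stood above the promoter of each of the 9 genes. The median over the 31 was 8.61 and 8.91, and 21 and 23 of them lay below the median of all open genes, so modest promoter enrichment was shared with the wider list.

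**Figure D4:**
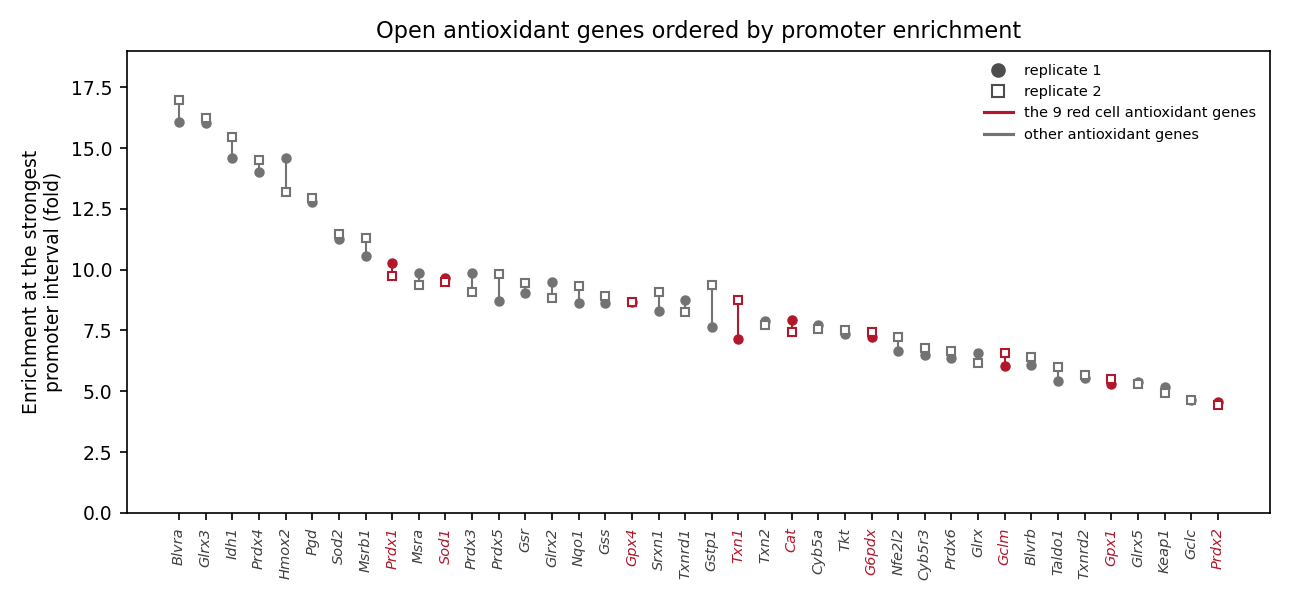
Enrichment (fold, linear axis from 0) of the strongest promoter interval for the 9 red cell antioxidant genes (red) and the 31 open genes of the wider list (grey), ordered by mean. Circles are replicate 1 and squares replicate 2. Blvra and Glrx3 lead, Prdx1 is the highest of the 9 and Prdx2 is the lowest of all 40 shown.

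The 9 genes of the wider list that were not open in both replicates were Sod3, Gpx2, Gpx3, Gpx7, Gpx8, Mgst1, Slc7a11, Me1 and Hmox1. Sod3 and Gpx3 encode secreted enzymes, Gpx2 the peroxidase of the gut, and Gpx7 and Gpx8 enzymes of the endoplasmic reticulum. Mgst1 is a membrane glutathione transferase, Slc7a11 the cystine carrier and Me1 the cytosolic malic enzyme. Hmox1, the inducible heme oxygenase, had a promoter interval in both pseudoreplicated lists and in the replicated one, and Gpx8 in the replicated one only. The other 7 had none in any of these lists.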

How the data were processed

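ATAC-seq peak lists of 2 replicates were analysed in mm10, per the labels. The authors deposited lists made from each replicate alone (thresholded, pseudoreplicated) and from both (thresholded, replicated), per the file listings. The aligner, peak caller and versions were not given in the sources used here. Enrichment is the deposited ratio, a fold of summit over background. Significance is the deposited −log10 p. Lines that repeat an interval for several summits were joined, keeping the strongest summit, on chromosomes 1 to 19, X and Y.

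Start sites and exons came from GENCODE M21 and letters from GRCm38.p6, whose chromosomes held all intervals. Classes were promoter, intragenic, then outside. Sites away from starts lay over 1 kb from the starts of all annotated genes. Motifs (AGATAA for GATA factors, TGACNNNGC for the response element, TGANTCA for NF-E2 and AP-1, CCNCNCCC for KLF and SP, CCAAT for NF-Y, CCGGAAG for ETS and GCGCATGCG for NRF1) were sought on both strands in 151 bp around each summit and in RefSeq windows of 250 bases before to 50 after the start (GRCm38.p6). TGANTCA can overlap TGACNNNGC, and GC-rich CCNCNCCC matches can overlap each other. Only stretches without annotated exons are printed.

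Named genes were the 9, the 4 of the wider list with the highest mean promoter enrichment, all of that list not open, and neighbors whose start an interval adjoins; markers were given as counts with the open ones named. The members and lists were chosen with earlier results of these data known. The count of genes with a site away from starts, the promoter base composition and the sequences shown were chosen after values were seen. Python 3.11.15 and SciPy 1.17.1 were used, and the class assignment was tested on simulated data. Alternatives covered promoter width, start sites, flank, list, overlap and each replicate alone.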

Additional observations from a re-analysis of the deposited data

How the results depend on the processing

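Restricted to the stricter 50% of each thresholded list by enrichment, 3 of the 9 genes (Prdx1, Sod1, Gpx4) were open, beside 30.0% of coding genes, and 17 of the wider list. The same setting left a mean of 15.5 intervals in the windows and 11.5 outside the promoter class. With flanks of 100 kb these were 93.5 and 81, and with 25 kb the second was 27.5, since the windows differ in size. With pseudoreplicated lists it was 65, against 41.5 in the main lists. The overlap share averaged 91.7% and moved to 85.2% for summits within 100 bp and to 100% against pseudoreplicated lists.

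Leaving out 1 replicate in turn gave 9 to 9 open genes, 31 to 31 of the wider list, 53 to 55 intervals, 41 to 42 outside the promoter class and 8 to 8 genes with a site away from starts. With the outermost 5' end only, Gpx4 was lost (8 open) and 26 of the wider list were open, beside 38.4% of coding genes. With pseudoreplicated lists Txn1 gained a site away from starts (9 genes, beside 56.1% of coding genes), an alternative chosen after seeing the data, as were the single-replicate values of that count. No paired analysis was possible because there is 1 group. Depth is unknown, so a site missing from these lists was not called, which does not show that it is closed.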

Other observations

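The RefSeq promoter windows of the 9 genes differed in base composition. The ratio of observed to expected CpG ran from 0.389 at Cat to 1.02 at Sod1, with 1.01 at Gpx4 and at Gclm, against a median of 0.588 over 20150 windows. Cat was the only one of the 9 below that median. GC content ran from 47.0% at Gpx1, below the median of 57%, to 79.7% at Gclm, at percentile 98.6 of all windows. Promoter intervals covered all 300 bases for 7 of the 9, for Prdx1 98.7% and 98.0%, and for Gpx1 72.0% and 65.7%. The values of Gpx4 are those of the 1 window used of its 4.

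Nfe2l2 and Keap1, the regulators of the antioxidant response on the wider list, were themselves open, as were 41.4% of all coding genes. Nfe2l2, which encodes NRF2, had a promoter enrichment of 6.65 and 7.24, by a start of E030042O20Rik too, and Keap1, which marks NRF2 for degradation, had 5.19 and 4.91. The partner of Gclm in glutathione synthesis, Gclc, had 4.63 in each replicate, the lowest of the 31 open genes of the wider list. These 3 were named after their values were seen.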
